A study of Mus musculus with 6 samples.

Results

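The genes described here encode the enzymes, regulators and carriers of sterol and fatty acid synthesis, and they were measured in microglia isolated from Fmr1 knockout mouse cerebellum. They were taken by gene symbol from the deposited count table, in which all 28 had a row among 23491 symbols. All 28 passed the filter on low counts, as did 14727 genes in all. The comparison was between 3 poly(I:C) libraries and 3 saline libraries. The poly(I:C) mice had received the synthetic double-stranded RNA poly(I:C), a mimic of viral infection, by intraperitoneal injection, and the control mice are labelled saline in one field and sham in the titles. Both groups carry the Fmr1 knockout, so no wild-type mice enter these values, and the labels give no dose, interval after injection, age or sex. Cells bearing CD11b were pulled out on a magnetic column, and since other myeloid cells also carry CD11b they can be among them. The labels do not say whether the libraries of a group came from separate animals. The p-values therefore measure the spread between these libraries, which may be technical.

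Cholesterol is built from acetyl-CoA through mevalonate, isoprenoid units, squalene and lanosterol. When membrane sterol falls, the escort protein Scap carries the sterol regulatory element-binding proteins, encoded by Srebf1 and Srebf2, out of the endoplasmic reticulum to be cleaved, and the released fragments switch on sterol and fatty acid genes, while Insig1 and Insig2 hold Scap back when sterol is plentiful. In macrophages the pathway is known to respond to interferon and to innate immune receptors, and in the brain microglia also take up and process cholesterol-rich myelin.

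Library totals lay between 33710545 and 34899835 counts. Defining microglial transcripts were abundant in all 6 libraries: P2ry12 lay from 1883 to 2606 CPM with poly(I:C) and from 2453 to 2995 CPM with saline, where CPM is a count scaled for library size and composition. Fmr1 reads numbered 2205, 1484 and 1897 in poly(I:C) libraries and 1243, 1336 and 1375 in saline libraries, and with no wild-type library these do not check the genotype. Poly(I:C) replicate 1 stood apart through choroid plexus transcripts: the 15 epithelial markers, all detected and all tested, summed to 20091 CPM there, to 7918 and 9627 CPM in the other poly(I:C) libraries in order, and to 4169, 8791 and 4127 CPM in saline replicates 1, 2 and 3. Saline replicate 1 stood apart through neutrophil markers, 12 in all, which summed to 1817 to 3318 CPM with poly(I:C) and to 22258, 3794 and 3802 CPM in saline replicates 1, 2 and 3. Csf3r among them varied little, at 945, 1315 and 1251 CPM with poly(I:C) and 1359, 1291 and 1331 CPM with saline. It made up most of the sum in poly(I:C) replicates 2 and 3. In bulk RNA, a different mix of cells and a different level per cell cannot be told apart.

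No member passed the test for a difference between poly(I:C) and saline, yet most sterol enzymes had their higher values with poly(I:C). In the quasi-likelihood test of edgeR, adjusted by Benjamini-Hochberg over all genes, 0 of 28 members were called higher and 0 lower, where 0.883% of all tested genes were called higher and 0.0747% lower. The adjusted p of the members lay between 0.119 and 0.893. Before adjustment, 11 members were higher at a p under 0.05, where 10.5% of all genes were, and 1 member was lower, where 10.8% of all genes were. The fitted fold change was positive for 21 members and negative for 7, and 51.1% of all tested genes had a positive one. The median log2 fold change over the members was 0.31, beside 0.0098 over all tested genes. In 11 members all 3 poly(I:C) libraries lay above all 3 saline libraries, which was so for 14% of all tested genes, and in 3 members they lay below, which was so for 14.3%.

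The differences were smaller, and fewer members had a low p, when poly(I:C) replicate 1 was left out. Again 0 members were called in either direction, with 0.702% of genes called higher and 0.0334% lower in that fit. The fold change was positive for 20 members and for 51.7% of genes, and the median was 0.23, beside 0.012 over all genes. At an unadjusted p under 0.05, 7 members were higher, with 7.71% of genes, and 1 was lower, with 6.65%. The number higher at that p moved either way when another library was left out. It was 4 without saline replicate 2, with 10.6% of all genes, and 4 without saline replicate 3, with 5.58%. It was 8 without poly(I:C) replicate 3, with 7.02% of genes. It was 12 without saline replicate 1, with 9.58%, and 13 without poly(I:C) replicate 2, with 13.4%. Without poly(I:C) replicate 1, the size of the fold change was smaller than with all libraries in 24 of 28 members. The same count over all tested genes was not made. Poly(I:C) replicate 1 was the highest of all 6 libraries in 20 members and in 31.8% of all tested genes. It was the lowest of all 6 in 5 members and in 27.6% of all tested genes.

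**Figure D1:**
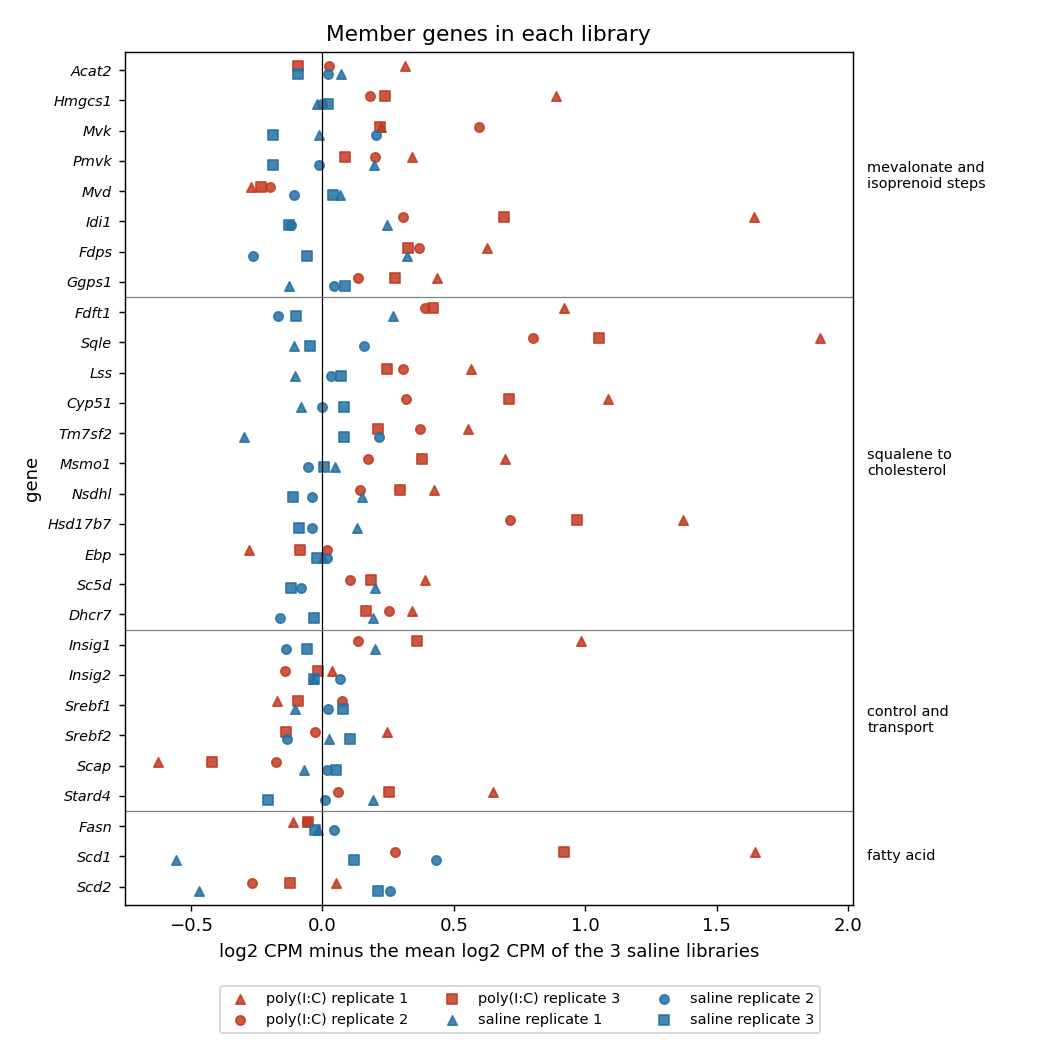
Log2 CPM of each of the 28 genes in each library, as the difference from the mean log2 CPM of the 3 saline libraries, grouped by role. Triangles, circles and squares are replicates 1, 2 and 3, red for poly(I:C) and blue for saline; Sqle, Hsd17b7 and Idi1 show red points to the right of every blue point, poly(I:C) replicate 1 lies farthest right in most rows, and Scap shows red points to the left.

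The call depended on the test. DESeq2 called 3 members higher, Sqle, Hsd17b7 and Cyp51, and 0 lower, beside 3.76% and 3.03% of the genes it gave an adjusted p. In limma-voom with quality weights, 7 members were higher, beside 8.61% of genes, and 1 was lower, beside 10.9%. The 7 were Sqle, Hsd17b7, Cyp51, Fdft1, Fdps, Msmo1 and Nsdhl, and the lower one was Scap. That method gave poly(I:C) replicate 1 a weight of 0.382 and poly(I:C) replicate 3 a weight of 4.41. Without both poly(I:C) replicate 1 and saline replicate 1, edgeR called Sqle alone higher, with a log2 fold change of 0.90 and an adjusted p of 0.046, beside 2.4% of genes called higher and 1.45% lower.

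The promoters of 5 members are shown because these members had the larger differences of their role (Hmgcs1, Idi1, Cyp51 and Hsd17b7) or the opposite direction (Scap), and because sterol genes are classically read through a sterol regulatory element and neighbouring NF-Y and GC boxes. The sequences are RefSeq's for build GRCm38.p6, from 250 bases before to 50 bases after an annotated start, 5′ to 3′ on the gene's strand. They are Hmgcs1 at chr13:119690101-119690400 on the plus strand, Idi1 at chr13:8885356-8885655 on the plus strand, Cyp51 at chr5:4104648-4104947 on the minus strand, Hsd17b7 at chr1:169969156-169969455 on the minus strand, and the more upstream of the Scap starts at chr9:110333038-110333337 on the plus strand. Capitals mark matches to the sterol regulatory element core TCACNCCAC or to the NF-Y box CCAAT, on either strand.
Hmgcs1: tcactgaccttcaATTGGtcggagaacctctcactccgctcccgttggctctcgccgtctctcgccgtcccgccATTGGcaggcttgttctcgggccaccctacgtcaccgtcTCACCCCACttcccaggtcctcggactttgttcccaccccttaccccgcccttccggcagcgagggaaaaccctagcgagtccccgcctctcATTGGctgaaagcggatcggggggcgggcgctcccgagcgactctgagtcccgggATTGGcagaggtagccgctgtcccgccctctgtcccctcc
Idi1: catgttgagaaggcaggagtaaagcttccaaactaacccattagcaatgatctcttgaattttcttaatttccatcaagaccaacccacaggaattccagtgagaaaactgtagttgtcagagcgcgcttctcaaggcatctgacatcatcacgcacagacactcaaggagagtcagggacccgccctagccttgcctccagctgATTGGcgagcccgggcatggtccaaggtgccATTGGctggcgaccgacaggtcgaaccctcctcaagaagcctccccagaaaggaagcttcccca
Cyp51: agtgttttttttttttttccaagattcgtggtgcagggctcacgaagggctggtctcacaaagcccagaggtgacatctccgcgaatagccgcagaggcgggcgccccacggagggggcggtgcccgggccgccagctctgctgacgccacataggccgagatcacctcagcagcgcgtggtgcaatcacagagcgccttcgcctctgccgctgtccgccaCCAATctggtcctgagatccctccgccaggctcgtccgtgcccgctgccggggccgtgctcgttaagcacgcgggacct
Hsd17b7: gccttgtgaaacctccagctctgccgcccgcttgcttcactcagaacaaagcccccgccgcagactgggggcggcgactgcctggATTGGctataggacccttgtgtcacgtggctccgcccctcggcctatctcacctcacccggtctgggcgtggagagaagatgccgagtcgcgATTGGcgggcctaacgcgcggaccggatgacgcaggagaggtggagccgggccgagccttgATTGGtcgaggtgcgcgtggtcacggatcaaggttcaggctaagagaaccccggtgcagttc
Scap: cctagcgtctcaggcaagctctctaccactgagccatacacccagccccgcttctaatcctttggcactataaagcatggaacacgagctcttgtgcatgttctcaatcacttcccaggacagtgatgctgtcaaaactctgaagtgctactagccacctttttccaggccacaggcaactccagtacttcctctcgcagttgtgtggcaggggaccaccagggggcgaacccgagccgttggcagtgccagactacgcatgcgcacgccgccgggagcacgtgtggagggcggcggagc

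Of the 28 members, 22 had at least 1 promoter in the RefSeq table, 30 promoters in all, and Fdft1, Fdps, Scd1, Scd2, Sqle and Stard4 had none. CCAAT was present in a promoter of 20 of these 22 genes (90.9%), and in 42.55% of 11432 tested genes with a promoter in the table. Counted per promoter, 70% of the 30 held it, against 37.19% of promoters of tested genes and 37.41% of all 32851 promoters. TCACNCCAC was found in 1 of 22 genes, Hmgcs1, where it reads TCACCCCAC and begins 137 bases before the start (position -137), and in 1.39% of tested genes. The GC box GGGCGG was present in 19 genes (86.4%), against 64.87% of tested genes, and the E-box CACGTG in 5 (22.7%), against 11.28%. All motifs were searched on both strands, none lies within another though matches can overlap at their ends, and a match describes letters and not binding. Only these letters were searched, with N as any base, so an element spelled otherwise was not counted. Acat2 and Scap were the members of the 22 with no CCAAT in any window.

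The early enzymes turn acetyl-CoA into mevalonate and then into isoprenoid units. In 5 of these 8 genes every poly(I:C) library was above every saline library, and in 1 every poly(I:C) library was below. Over all tested genes these shares were 14% and 14.3%. Hmgcs1, which condenses acetyl-CoA with acetoacetyl-CoA, stood at 94.8, 58.0 and 60.3 CPM in poly(I:C) libraries and at 50.4, 51.1 and 51.9 CPM in saline libraries. The saline libraries lay within 2 CPM of each other, and most of the excess with poly(I:C) was in replicate 1. The log2 fold change was 0.47 (SE 0.19, adjusted p = 0.224 in edgeR), and without poly(I:C) replicate 1 it was 0.23 (SE 0.08, adjusted p = 0.300). Idi1, the isomerase that makes the reactive isoprenoid unit, had 15.1, 5.97 and 7.79 CPM with poly(I:C) and 5.72, 4.45 and 4.42 CPM with saline. Its groups did not overlap, and poly(I:C) replicate 2 was nearest to saline replicate 1. The log2 fold change was 0.98 (SE 0.36, adjusted p = 0.206 in edgeR), and 0.52 (SE 0.24, adjusted p = 0.390) without poly(I:C) replicate 1.

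Farther along the same branch, Fdps, which makes farnesyl diphosphate, had 30.1, 25.1 and 24.4 CPM with poly(I:C) and 24.4, 16.3 and 18.7 CPM with saline. Its groups touched at poly(I:C) replicate 3 and saline replicate 1, the library rich in neutrophil transcripts. In the GENCODE M21 annotation 26.7% of its exon bases are shared with exons of Gm43738 on the same strand, the largest share of any member, so its counts are uncertain. Ggps1, which makes the geranylgeranyl diphosphate used to anchor small GTPases, averaged 34.7 ± 3.64 CPM with poly(I:C) and 28.5 ± 2.18 CPM with saline (SD, n = 3 each), a log2 fold change of 0.29 (adjusted p = 0.224 in edgeR). Mvk, mevalonate kinase, was the only one of the 11 separated members whose highest library was not poly(I:C) replicate 1: it had 9.92, 12.9 and 9.89 CPM with poly(I:C) and 8.42, 9.79 and 7.46 CPM with saline. The next kinase, Pmvk, overlapped between groups, at 17.1 ± 1.53 CPM with poly(I:C) and 14.8 ± 1.98 CPM with saline. Mvd, the decarboxylase that follows, ran the other way and tightly, with 10.1, 10.6 and 10.4 CPM in poly(I:C) libraries and 12.8, 11.3 and 12.6 CPM in saline libraries. Its log2 fold change was -0.24 (SE 0.13, adjusted p = 0.327 in edgeR). Acat2, the cytosolic thiolase that supplies acetoacetyl-CoA, overlapped between groups, at 11.2 ± 1.66 CPM with poly(I:C) and 10.6 ± 0.61 CPM with saline.

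The enzymes from squalene to cholesterol held the largest differences. Of these 11 genes, 10 had a positive fold change, beside 51.1% of all tested genes. In 6 every poly(I:C) library was above every saline library, beside 14% of all tested genes. The median log2 fold change was 0.38 with all libraries and 0.30 without poly(I:C) replicate 1. Sqle, squalene epoxidase and a rate-limiting step of the branch, stood at 27.3, 12.8 and 15.2 CPM in poly(I:C) libraries and at 6.81, 8.20 and 7.10 CPM in saline libraries. Each poly(I:C) library was above all saline libraries by more than the range of the saline libraries. The log2 fold change was 1.32 (SE 0.30, adjusted p = 0.119 in edgeR), or 2.50-fold. Without poly(I:C) replicate 1 it was 0.95 (SE 0.17, adjusted p = 0.127), or 1.93-fold. Hsd17b7, a sterol ketoreductase that acts while the methyl groups of lanosterol are removed, had 10.1, 6.38 and 7.62 CPM with poly(I:C) and 4.26, 3.78 and 3.66 CPM with saline. Its groups did not overlap, and the log2 fold change was 1.04 ± 0.24 (SE, with adjusted p = 0.119 in edgeR), or 0.87 (SE 0.22, adjusted p = 0.240) without poly(I:C) replicate 1.

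Cyp51, the lanosterol demethylase, had 50.3, 29.5 and 38.7 CPM with poly(I:C) and 22.4, 23.7 and 25.1 CPM with saline. The groups did not overlap, and the log2 fold change was 0.74 (SE 0.19, adjusted p = 0.144 in edgeR), or 0.55 (SE 0.14, adjusted p = 0.240) without poly(I:C) replicate 1. Fdft1, squalene synthase, had 32.3, 22.4 and 22.9 CPM with poly(I:C) and 20.6, 15.2 and 15.9 CPM with saline, at log2 fold change 0.58 ± 0.19 (SE, with adjusted p = 0.185 in edgeR). Its value needs care, since 18.3% of its exon bases in the GENCODE M21 annotation are shared with exons of Ctsb on the opposite strand, and the counts carry no strand. The shared part was 12.1% of exon bases in Hmgcs1 and in Tm7sf2 and 9.22% in Idi1. Lss, lanosterol synthase, averaged 22.7 ± 2.74 CPM with poly(I:C) and 17.5 ± 1.09 CPM with saline (SD, n = 3 each), and its groups did not overlap. Msmo1, the methylsterol oxidase, averaged 39.2 ± 7.25 CPM with poly(I:C) and 29.1 ± 1.01 CPM with saline, and its lowest poly(I:C) library, at 32.8 CPM, was above its highest saline library, at 30.1 CPM.

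The other 5 genes of the branch overlapped between groups. Nsdhl, the decarboxylating partner of Msmo1, had 23.6, 19.5 and 21.6 CPM with poly(I:C) and 19.6, 17.1 and 16.3 CPM with saline, so that poly(I:C) replicate 2 was just under saline replicate 1. The sterol reductase Tm7sf2, the desaturase Sc5d and the reductase Dhcr7, which carries out the last step of one route to cholesterol, had log2 fold changes of 0.37, 0.23 and 0.25 (adjusted p between 0.266 and 0.333 in edgeR). In Sc5d and Dhcr7 the saline library that reached into the poly(I:C) range was saline replicate 1, at 30.6 and 40.6 CPM. Ebp, the sterol isomerase, was the exception in direction: it had 41.4, 50.9 and 47.4 CPM with poly(I:C) and 50.4, 50.9 and 49.6 CPM with saline. Its log2 fold change was -0.11 with all libraries and -0.01 without poly(I:C) replicate 1.

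**Figure D2:**
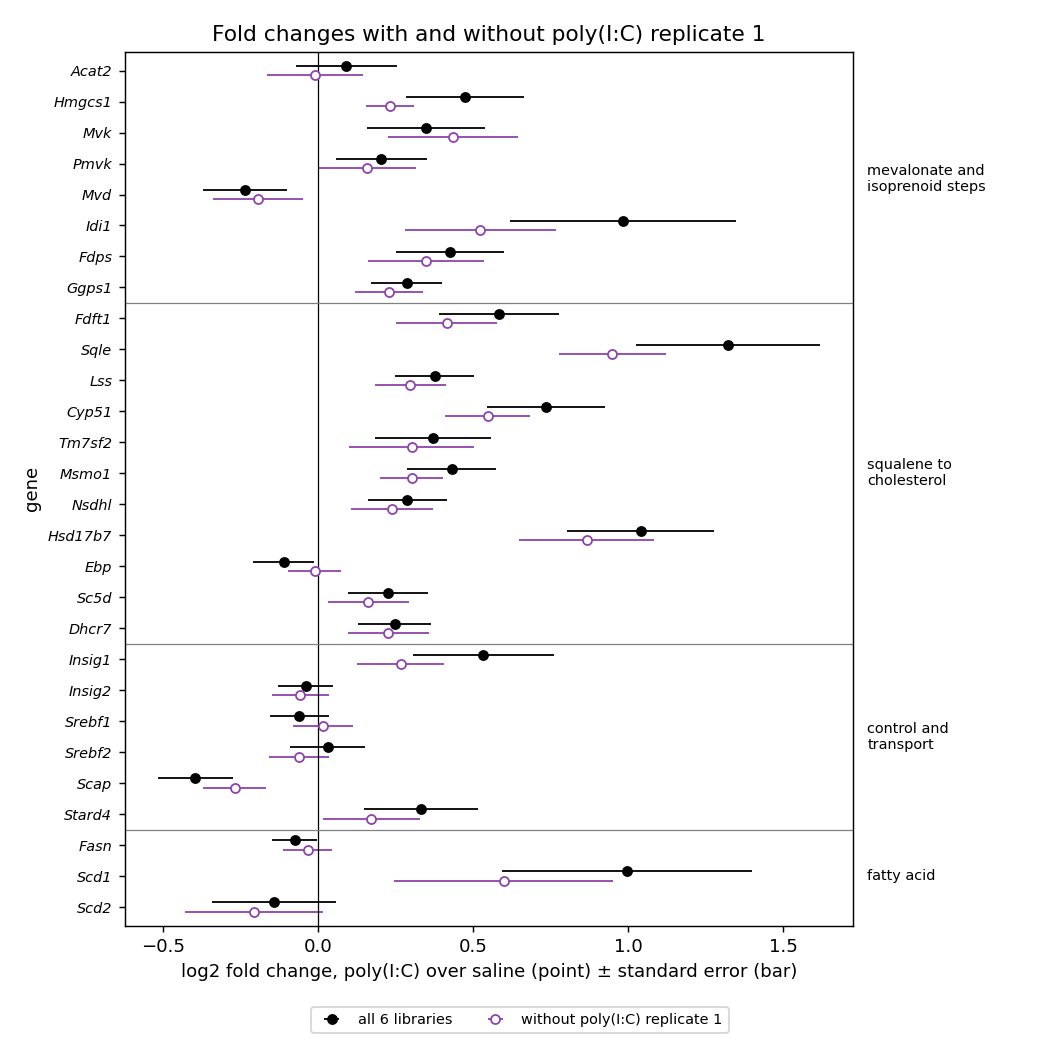
Log2 fold change of poly(I:C) over saline for each of the 28 genes with its standard error, with all 6 libraries (filled black) and without poly(I:C) replicate 1 (open purple). Sqle at 1.32 and 0.95 and Hsd17b7 at 1.04 and 0.87 lie farthest from 0, Idi1 and Scd1 move most between the fits, and Srebf1, Srebf2, Insig2 and Fasn lie near 0 in both.

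Among the 6 genes of control and transport, 0 had every poly(I:C) library above every saline library and 1 had every one below. Over all tested genes these shares were 14% and 14.3%. The median log2 fold change of the 6 was -0.0041. Srebf2, the main activator of sterol genes, had 119, 98.7 and 91.4 CPM with poly(I:C) and 103, 91.9 and 108 CPM with saline, with full overlap and at log2 fold change 0.03 ± 0.12 (SE, with adjusted p = 0.893 in edgeR). Srebf1, the activator more tied to fatty acid genes, had 65.6, 77.8 and 69.2 CPM with poly(I:C) and 68.8, 75.0 and 78.0 CPM with saline, also overlapping, and a log2 fold change of -0.06 (SE 0.10). The sign of both turned without poly(I:C) replicate 1, where Srebf2 was at -0.06 and Srebf1 at 0.02. These are transcript levels, and cleavage of the proteins was not measured.

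Scap had the lower values with poly(I:C): 73.8, 101 and 85.1 CPM, against 109, 115 and 118 CPM with saline. All poly(I:C) libraries lay below all saline libraries, and the log2 fold change was -0.40 (SE 0.12, adjusted p = 0.171 in edgeR), or -0.27 (SE 0.10, adjusted p = 0.328) without poly(I:C) replicate 1. In the annotation 13.2% of its exon bases are shared with 5830462I19Rik on the opposite strand. Insig1, which is itself a sterol-responsive gene, had 56.9, 31.6 and 36.9 CPM with poly(I:C) and 33.0, 26.1 and 27.6 CPM with saline. It overlapped through poly(I:C) replicate 2 and saline replicate 1, and its log2 fold change was 0.53 (SE 0.23, adjusted p = 0.238 in edgeR), or 0.27 without poly(I:C) replicate 1. Insig2, its less sterol-responsive relative, averaged 44.5 ± 2.84 CPM with poly(I:C) and 45.7 ± 1.87 CPM with saline (SD, n = 3 each). Stard4, a carrier that moves cholesterol between membranes, had 28.3, 18.8 and 21.5 CPM with poly(I:C) and 20.6, 18.2 and 15.7 CPM with saline, and overlapped through poly(I:C) replicate 2 and saline replicate 1.

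The 3 fatty acid genes differed among themselves. Fasn, fatty acid synthase, had 53.3, 55.3 and 55.4 CPM with poly(I:C) and 57.0, 59.3 and 56.5 CPM with saline. The groups did not overlap, and the log2 fold change was -0.08 (SE 0.07, adjusted p = 0.552 in edgeR). Scd1, a desaturase that makes oleic acid, had 16.8, 6.50 and 10.1 CPM with poly(I:C) and 3.65, 7.25 and 5.84 CPM with saline. Poly(I:C) replicate 2 lay below saline replicate 2, and the log2 fold change was 1.00 ± 0.40 (SE, with adjusted p = 0.225 in edgeR) and became 0.60 (SE 0.35, adjusted p = 0.469) without poly(I:C) replicate 1. Its relative Scd2, the main desaturase of the brain, had 213, 171 and 189 CPM with poly(I:C) and 149, 246 and 238 CPM with saline. Saline replicate 1 was the lowest of all 6 libraries for both desaturases, and the log2 fold change of Scd2 was -0.14 (SE 0.20). The desaturases are close copies, so the split of reads between them is uncertain.

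Some members ran in the same order as choroid plexus transcripts and several other marker groups among the poly(I:C) libraries. There the choroid plexus marker sum ran in the order replicate 2, replicate 3, replicate 1. The CPM ran in that order in 15 of 28 members, among them Sqle, Hsd17b7, Cyp51, Hmgcs1 and Scd1. The same count over all tested genes was not made, and Scap ran in the reverse order. Poly(I:C) replicate 1 was the highest of the 3 in 22 of 28 members and in 45.8% of all tested genes. Among the saline libraries the choroid plexus sum was highest in replicate 2, as were Sqle and Scd1. Hsd17b7 was highest in saline replicate 1, and Cyp51 and Hmgcs1 in saline replicate 3. Saline replicate 2 was the highest of the 3 in 8 of 28 members and in 31% of all tested genes. Saline replicate 2, at 8791 CPM of choroid plexus markers, lay between poly(I:C) replicates 2 and 3, at 7918 and 9627 CPM. In those libraries Sqle was at 12.8 and 15.2 CPM with poly(I:C) and 8.20 CPM with saline, and Hsd17b7 was at 6.38 and 7.62 CPM with poly(I:C) and 3.78 CPM with saline. Scd1, in contrast, was at 6.50 and 10.1 CPM with poly(I:C) and 7.25 CPM with saline. Endothelial and pericyte markers, 10 in all, also ran in the order replicate 2, replicate 3, replicate 1 among the poly(I:C) libraries. They summed to 387, 177 and 196 CPM with poly(I:C) and to 140, 263 and 147 CPM with saline, by replicate number. Saline replicate 2 was the highest saline library for them, as for the choroid plexus sum. The microglial markers, 11 with counts, summed to 30270, 41576 and 38793 CPM with poly(I:C) and to 38382, 42473 and 44161 CPM with saline, so that poly(I:C) replicate 1 was the lowest of all libraries. Of 10 marker lists, 7 ran in the order replicate 2, replicate 3, replicate 1 among the poly(I:C) libraries. Of these, 2 also had saline replicate 2 as the highest saline library. Oligodendrocyte markers, another source of lipid synthesis transcripts, summed to 128 to 152 CPM with poly(I:C) and 140 to 152 CPM with saline over 9 genes. Markers of dividing cells, 6 in all, summed to 54.1 to 88.4 CPM with poly(I:C) and to 436, 83.7 and 95.7 CPM in saline replicates 1, 2 and 3. The part of other cells in the differences was not tested beyond leaving out libraries.

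**Figure D3:**
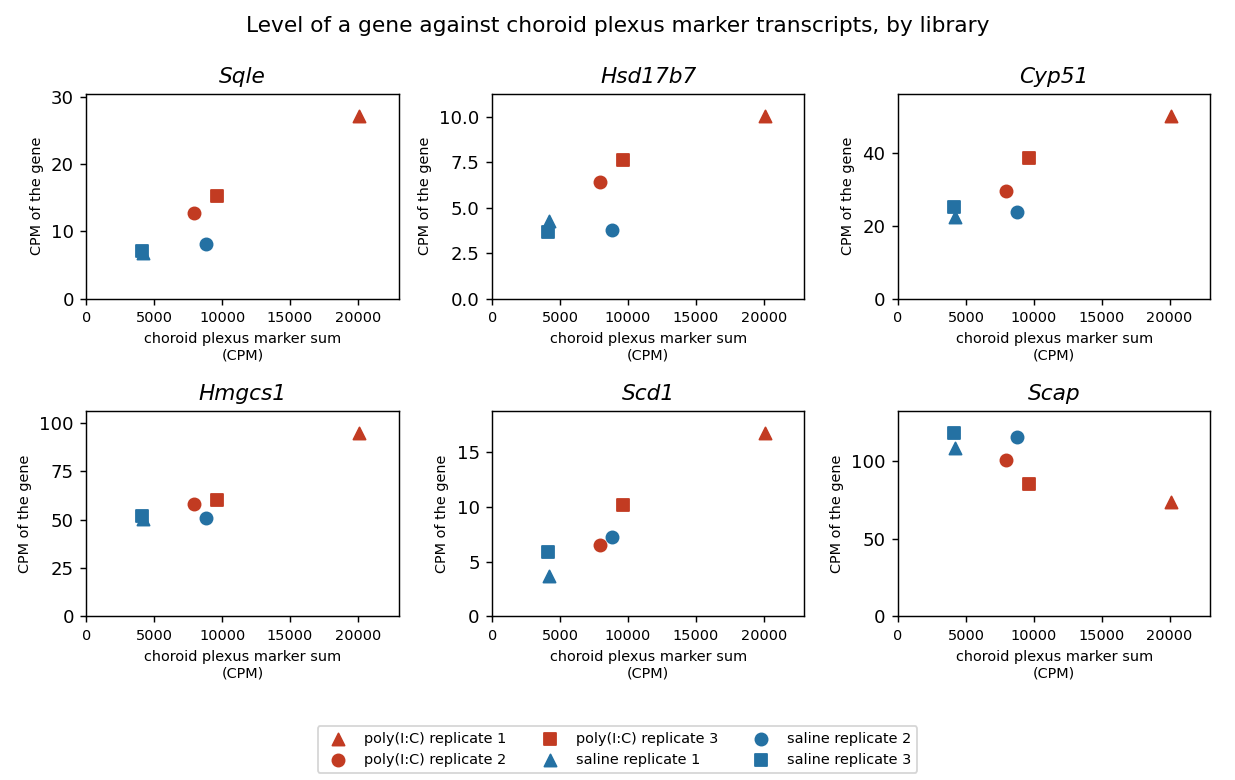
CPM of 6 genes (vertical axes, from 0) against the summed CPM of 15 choroid plexus markers (horizontal axes), 1 point per library, red for poly(I:C) and blue for saline. At marker sums of 7918 and 9627 CPM, poly(I:C) replicates 2 and 3 lie above saline replicate 2 (8791 CPM) for Sqle, Hsd17b7, Cyp51 and Hmgcs1, on either side of it for Scd1, and below it for Scap.

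Read per length, the members spanned a wide range of levels. Levels here are mean CPM per kilobase of annotated exon (the union of GENCODE M21 exons), which understates genes with long rare exons. With poly(I:C) the order from the top was Scd2 at 34.9 ± 3.89, Ebp at 20.1 ± 2.07, Hmgcs1 at 15.5 ± 4.49, Srebf2 at 14.4 ± 2.02 and Insig1 at 13.5 ± 4.33 CPM per kilobase (SD, n = 3). With saline it was Scd2 at 38.6 ± 9.89, Ebp at 21.8 ± 0.28, Scap at 15.3 ± 0.65, Srebf2 at 14.1 ± 1.17 and Insig2 at 13.2 ± 0.54. Neighbours such as Hmgcs1, Srebf2 and Insig1 with poly(I:C), or Srebf2, Insig2 and Srebf1 with saline, differed by less than their spread. The lowest level per kilobase in both groups was that of Hsd17b7, at 1.57 ± 0.37 with poly(I:C) and 0.76 ± 0.062 with saline, and Sqle, Idi1, Scd1 and Lss were the next lowest in saline libraries, between 1.14 and 1.62. Sqle ranked 23 with poly(I:C) and 26 with saline out of 28, and Scap ranked 8 with poly(I:C) and 3 with saline.

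**Figure D4:**
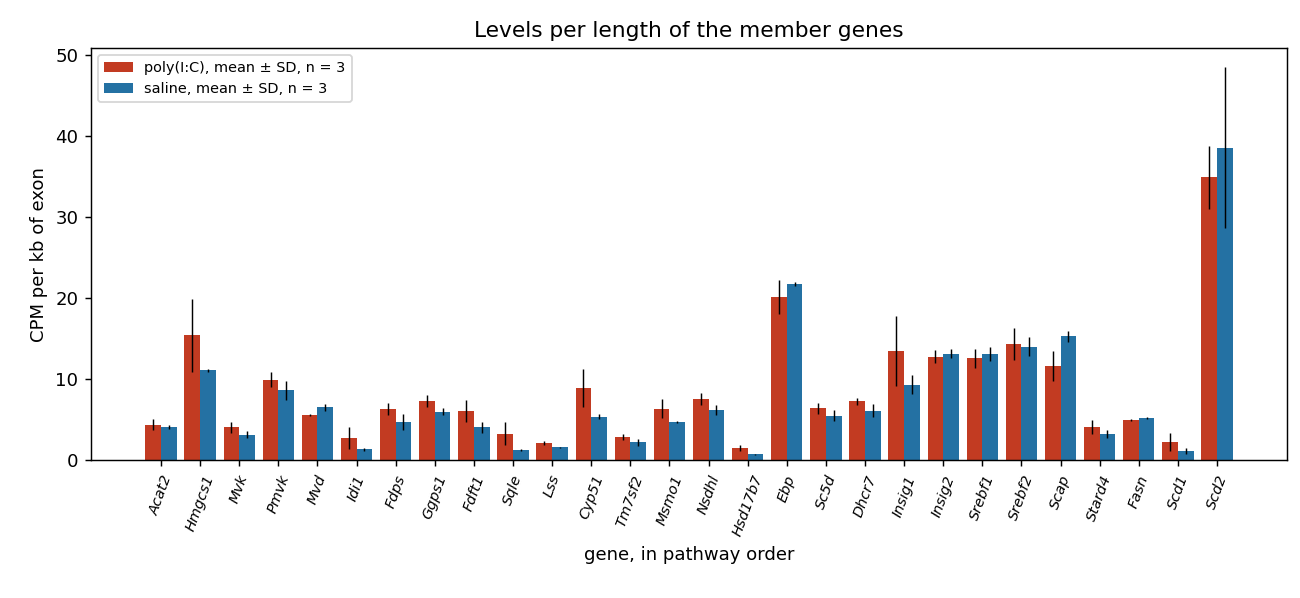
Mean CPM per kilobase of exon with SD (n = 3 libraries per group) for the 28 genes in pathway order, poly(I:C) in red at the left of each pair and saline in blue. Scd2 and Ebp stand highest in both groups, Hsd17b7 lowest, and the bars of Hmgcs1, Idi1, Sqle, Cyp51 and Insig1 with poly(I:C) carry wide errors.

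A list of 25 further genes of lipid synthesis and its control, of which 24 were tested, was compared in the same way. In edgeR 0 were called higher and 0 lower, beside 0.883% and 0.0747% of all tested genes. The log2 fold change was positive for 15 and negative for 9, beside 51.1% positive over all tested genes. The median was 0.20, or 0.11 without poly(I:C) replicate 1. At an unadjusted p under 0.05, 5 were higher and 3 lower, beside 10.5% and 10.8% of all tested genes, and without poly(I:C) replicate 1 these counts were 2 and 2, beside 7.71% and 6.65%. Hsd17b12, Aacs, Lpin1 and Nr1h2 were among the 6 with the smallest p. Hsd17b12, a reductase of fatty acid elongation, had 137, 92.2 and 118 CPM with poly(I:C) and 79.7, 67.7 and 74.2 CPM with saline, without overlap (log2 fold change 0.65, SE 0.15, adjusted p = 0.122 in edgeR).

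Aacs, Lpin1 and Nr1h2 had their lower values with poly(I:C). Aacs, which activates acetoacetate for lipid synthesis, had 15.6, 16.1 and 16.2 CPM with poly(I:C) and 23.3, 20.7 and 20.2 CPM with saline, at log2 fold change -0.42 ± 0.11 (SE, with adjusted p = 0.147 in edgeR). Lpin1, a phosphatidate phosphatase, averaged 37.2 ± 4.92 CPM with poly(I:C) and 48.9 ± 1.80 CPM with saline (SD, n = 3 each). Nr1h2, the gene of the oxysterol-sensing liver X receptor beta, averaged 113 ± 19.9 CPM with poly(I:C) and 148 ± 0.89 CPM with saline. Neither group pair overlapped, and the adjusted p were 0.166 for Lpin1 and 0.184 for Nr1h2 in edgeR. Calls depended on the test here too. DESeq2 called Hsd17b12 higher (adjusted p = 0.0096) and Aacs lower (adjusted p = 0.046), beside 3.76% and 3.03% of genes. In limma-voom with quality weights Hsd17b12 was called higher (adjusted p = 0.0082), beside 8.61% of genes. That method called Aacs, Lpin1 and Nr1h2 lower (adjusted p = 0.024, 0.031 and 0.019), beside 10.9%.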

How the data were processed

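Read counts per gene symbol were analysed for 6 libraries of CD11b-enriched cerebellar microglia, made with SMARTer amplification and Nextera XT per the labels' protocols, without molecular identifiers, so that counts are of reads. The authors deposited raw counts, neither normalised nor pooled. The tools fastp, HISAT2 and HTSeq and build GRCm39 are named, per the submitters' processing notes; no version, setting or strand handling is stated. Exons of 11 of the 28 members overlap another gene in GENCODE M21 (build GRCm38, used only for lengths and overlaps), and reads there cannot be assigned by strand.

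Genes were kept by filterByExpr, scaled by TMM and tested with edgeR 4.0.16 (quasi-likelihood F test, R 4.3.3) on all genes, with a call at a false discovery rate (Benjamini-Hochberg) under 0.05. SE was taken as the size of the log2 fold change over the root of F. Alternatives were RLE and upper-quartile scaling, no filter, a filter of 5 CPM in 3 libraries, DESeq2 1.42.0, limma-voom 3.58.1 with quality weights, a replicate block, and leaving out libraries. On simulated counts for this comparison (14514 genes in the step) the edgeR fit recovered 12% of the 1.5-fold changes, 38% of the 2-fold changes and 70% of the 4-fold changes, with 4 false calls in 108. Libraries of 1 group were farther apart than counting noise allows (chi-square per gene 21.2 to 113) and each was kept as its own replicate. The members and lists were chosen with earlier results of these data known. All 28 members are described, and of the related list 4 of the 6 genes with the smallest p; the others are not reported here.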

Additional observations from a re-analysis of the deposited data

How the results depend on the processing

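Over 14 alternatives and 28 genes, 371 of 392 gene values kept their direction and their side of the threshold, 12 passed the threshold where the edgeR fit with all libraries did not, and 9 changed sign, all in Acat2, Insig2, Srebf1 or Srebf2, whose fold changes were near 0. The count of members called higher was 3 in DESeq2 and 7 in limma-voom with quality weights, which called 1 lower. With libraries left out (each in turn, or both replicates numbered 1 together), 0 or 1 members were called higher and 0 lower, the 1 being Sqle without both. Between 20 and 22 members had a positive fold change, and the median log2 fold change ranged from 0.23 to 0.35. In those fits the log2 fold change ranged from -0.010 to 0.17 for Acat2, from -0.074 to 0.0065 for Insig2, from -0.14 to 0.015 for Srebf1 and from -0.063 to 0.11 for Srebf2, and that of Sqle from 0.90 to 1.52 (adjusted p from 0.046 to 0.364 in edgeR). Insig2 stood at 0.0084 under upper-quartile scaling. With limma-voom Acat2 stood at -0.020 and Srebf2 at -0.11, and with both replicates numbered 1 left out Srebf2 stood at -0.05. The cause was not tested.

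Same-numbered libraries did not deviate together in every pair (correlations of 0.148, -0.0907 and 0.246 for numbers 1, 2 and 3), so the numbers were not taken as pairs. With the replicate block 0 members were called in either direction, and the median was 0.30. Members had 120 to 8507 counts per library. Most 2-fold changes were missed in the simulation, whose changed genes were drawn from all genes past the filter. Recovery at the counts and spread of the members was therefore not measured, and depth and spread were not varied separately.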

Other observations

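Several fatty acid genes of the related list, chosen after their values were seen, were highest in poly(I:C) replicate 1. That library was the highest of all 6 for 31.8% of all tested genes. Fads2, a desaturase of polyunsaturated fatty acids, had 40.3, 17.6 and 16.7 CPM with poly(I:C) and 9.22, 17.9 and 8.90 CPM with saline. Elovl6, an elongase, had 15.3, 3.66 and 5.49 CPM with poly(I:C) and 3.38, 4.88 and 2.92 CPM with saline. Me1, which supplies NADPH for lipid synthesis, had 15.4, 4.23 and 5.84 CPM with poly(I:C) and 2.62, 6.23 and 2.54 CPM with saline. In each of these genes poly(I:C) replicate 1 and saline replicate 2 were the highest of their group, as they were for the choroid plexus marker sum, at 20091 and 8791 CPM, and for the endothelial and pericyte marker sum, at 387 and 263 CPM. Other fatty acid genes of the list ran otherwise: Acly and Elovl1 were lowest of all 6 libraries in poly(I:C) replicate 1, and Fads1 was highest in poly(I:C) replicate 2. The part of other cells in any of these values was not tested.

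Within the saline group, saline replicate 1, the library with 22258 CPM of neutrophil markers and 436 CPM of markers of dividing cells, was the highest of the 3 for 13 of 28 members, and for 38.5% of all tested genes.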
